A study of Mus musculus with 4 samples.

Results

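Rad21 binding at the centromere ends of the mouse autosomes was taken from 2 lists of ChIP-seq peaks, 1 for neural stem cells (NSCs) and 1 for astrocytes (ASTs). A peak belonged to the set when it lay on chromosomes 1 to 19 and started below 8 Mb in mm9, a rule on position that used no measured value. This took 543 of the 18405 NSC peaks and 538 of the 16157 AST peaks. The NSC medium held EGF and FGF, while ASTs were kept in BMP and FGF on laminin, and neither received another treatment. According to the study, the NSCs were clonal cultures made from mouse embryonic stem cells, and the ASTs were their post-mitotic progeny. There were 4 libraries, 1 of Rad21 and 1 of input (unselected chromatin) for NSCs and the same for ASTs, so each list stands for a single library and a difference between them has no replicate error beside it. No expression values were analysed here with which to check the cell types against markers. Read depth was not given in the sources used here.

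Rad21 is the kleisin subunit of cohesin, the ring-shaped complex that holds sister chromatids together until they separate and that forms chromatin loops in interphase. Most of its interphase sites on chromosome arms are also bound by CTCF. Mouse autosomes are telocentric: the centromere lies at one end, embedded in long arrays of satellite repeats that are packed as heterochromatin. These arrays are not in the assembled sequence, which begins near 3 Mb on each autosome. The peaks described here therefore lie in the first 5 Mb of ordinary sequence next to the repeats, a stretch where collapsed or repeated sequence can gather reads from many copies. Cohesin on the satellites themselves is outside these lists.

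The first comparison was of density. Over the first 5 Mb of the 19 autosomes (95 Mb), NSCs had 5.72 peaks per Mb (5.245 to 6.22) and ASTs had 5.66 (5.195 to 6.16). Ranges after a count, share or ratio are exact 95% intervals, which cover counting error only. They are not tests, and since neighbouring peaks are not independent they are too narrow. The remainder of these chromosomes, as far as the final peak in the lists, had 7.50 peaks per Mb in NSCs (7.385 to 7.61) and 6.54 in ASTs (6.44 to 6.65). The ratio of the centromere end to the rest was 0.7625 in NSCs (0.699 to 0.8305) and 0.866 in ASTs (0.793 to 0.9435). These ratios depended on how the stretch was drawn. Over the first 2 Mb alone, with the boundary at 5 Mb, the ratio was 0.863 in NSCs (0.757 to 0.979) and 1.06 in ASTs (0.931 to 1.19). Counted from the first peak of each chromosome it was 0.839 in NSCs (0.769 to 0.914) and 0.953 in ASTs (0.873 to 1.04). The NSC intervals stayed below 1, and the AST intervals then included it. The count from the first peak leaves out only sequence without peaks, so it could only raise the density of the stretch.

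The lower density was not confined to the first 5 Mb. The adjoining stretch from 8 to 13 Mb held 562 NSC and 539 AST peaks, and the density ratio of the first 5 Mb to it was 0.966 in NSCs (0.857 to 1.09) and 0.998 in ASTs (0.884 to 1.13). Of the first 20 steps of 1 Mb, all 20 in NSCs and 17 in ASTs lay below the density of the remainder. The opposite ends of the chromosomes had more peaks. The last 5 Mb before the last peak held 912 NSC and 813 AST peaks, 9.60 and 8.56 per Mb. The centromere end had 0.595 times (0.534 to 0.663) and 0.662 times (0.592 to 0.739) their density. These stretches were not drawn alike. The distal one ends at a peak, while the centromere one also counts the sequence before its first peak.

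**Figure D1:**
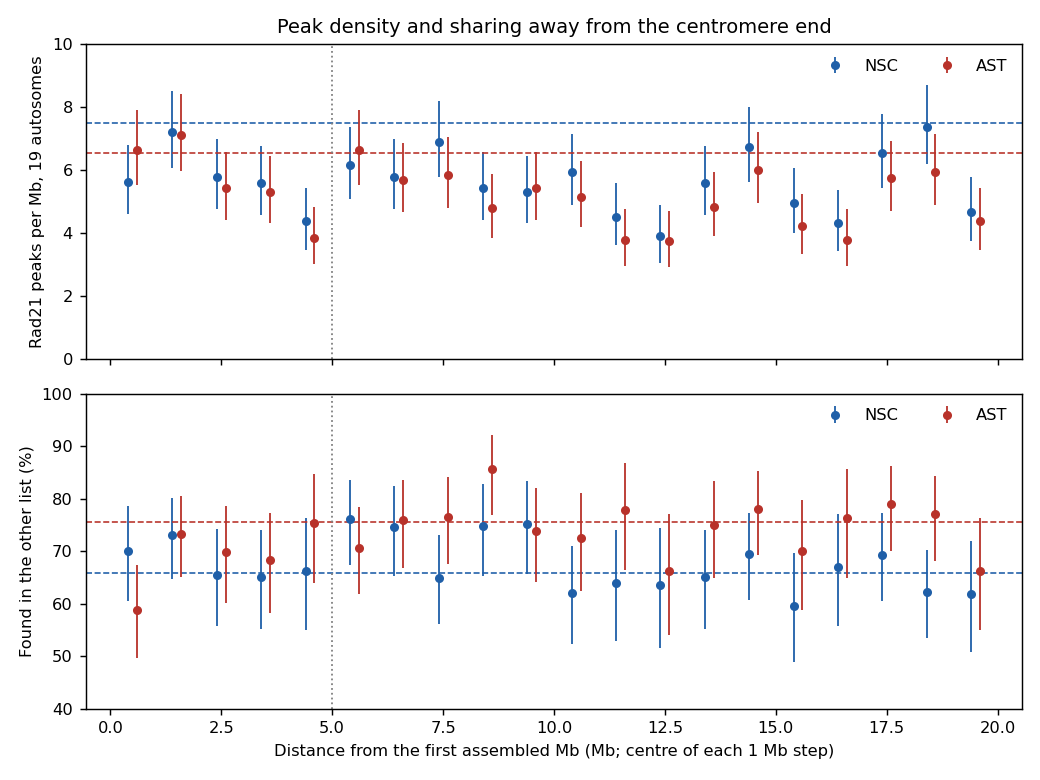
Rad21 peaks per Mb over 19 autosomes (upper panel) and the percentage of peaks with an overlapping peak in the other list (lower panel, drawn from 40%) in 1 Mb steps from 3 Mb, the first assembled Mb, with NSCs in blue and ASTs in red. Bars are exact 95% intervals, dashed lines the values of the rest of the autosomes, and the dotted line the limit of the set; the first AST step has the lowest shared percentage, 58.7%, and all NSC densities lie under the blue line.

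Chromosomes differed far more than the cell types did. Member counts ran from 0 on chromosome 14 to 80 on chromosome 19 in NSCs and from 0 on chromosome 14 to 77 on chromosome 11 in ASTs, with a median of 25 in each. Over the 19 chromosomes, the counts in the NSC and AST lists had a Pearson correlation of 0.943 and a Spearman correlation of 0.886, given as a description, since both lists share the gene content and mappability of each stretch. The centromere end was sparser than the rest in both cell types on 12 chromosomes and denser in both on 4. These 4 were chromosome 19 (ratio 1.72 in NSCs and 1.61 in ASTs), chromosome 11 (1.33 and 1.59), chromosome 10 (1.41 and 1.23) and chromosome 7 (1.07 and 1.35). The median ratio by chromosome was 0.7465 in NSCs and 0.817 in ASTs, with an SD over chromosomes of 0.443 and 0.476. Without chromosome 19 the pooled ratio was 0.690 in NSCs and 0.797 in ASTs.

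The fullest chromosome ends were those of chromosomes 19 and 11. Chromosome 19 had 80 NSC and 73 AST peaks in its first 5 Mb, 16 and 14.6 per Mb, against 9.30 and 9.07 per Mb in its remainder. Chromosome 11 had 66 NSC and 77 AST peaks, against 9.915 and 9.71 per Mb in its remainder. Of these, 7 NSC and 17 AST peaks belonged to a group of weakly enriched peaks at its start, described below. The AST count of chromosome 11 exceeded that of chromosome 19 only with this group counted. The most crowded ends were thus crowded in both cell types.

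At the other extreme stood chromosomes 3, 9 and 14. Chromosome 14 had no peak of either list in the stretch. Its first NSC peak started at 8581987 and its first AST peak at 8582052. Taking 3 counts as the limit that a count of 0 allows, the density there was at most 0.6 peaks per Mb, for counting error only. Chromosome 3 had 5 NSC and 3 AST peaks, and chromosome 9 had 8 and 9. On these chromosomes the first NSC peak lay well inside the sequence, at 5.86 Mb on chromosome 3 and 6.67 Mb on chromosome 9, while the first AST peak lay at 3.01 Mb and 3.26 Mb. Both of these early AST peaks had a background, the fragment count that the peak caller expected at that place, over 2 times the level usual for the list, and neither overlapped an NSC peak. The first peak lay within 0.5 Mb of the start on 14 chromosomes in NSCs and on 15 in ASTs, chromosomes 3 and 9 among the latter.

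**Figure D2:**
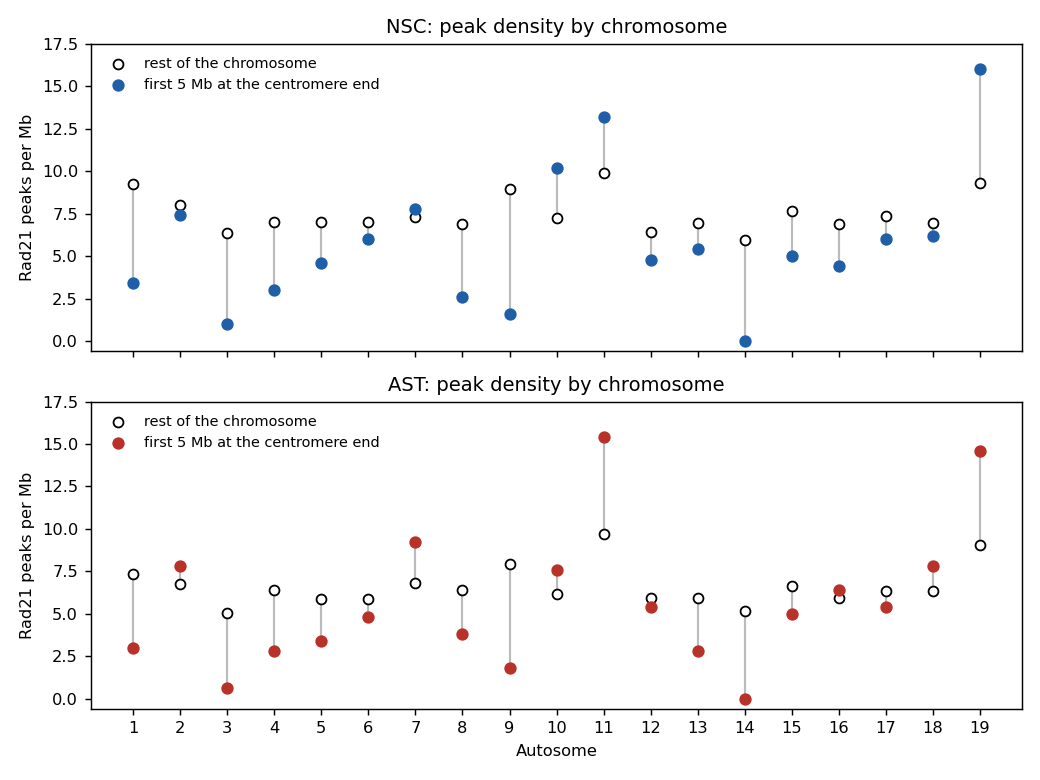
Rad21 peaks per Mb in the first 5 Mb at the centromere end (filled points) and in the rest of the chromosome (open points) for each autosome, NSCs above and ASTs below. Filled points lie above open ones on chromosomes 7, 10, 11 and 19 in both panels, and chromosome 14 has none.

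Distances between neighbouring members were close to those elsewhere in NSCs and shorter in ASTs. They leave out the sequence before the first peak, any gap crossing 8 Mb and the empty end of chromosome 14, so they do not measure density. The longest was 2.07 Mb in NSCs and 2.85 Mb in ASTs, against 7.92 and 7.8 Mb in the rest. The median distance between the starts of neighbouring members was 57.5 kb in NSCs, against 57.9 kb in the rest, and 58.6 kb against 67.1 kb in ASTs. Neighbouring NSC peaks lay under 10 kb apart in 16.95% of cases (13.8 to 20.4), against 15.9% in the rest, and AST peaks in 15% (12.0 to 18.4), against 13.5%. Without peaks of background over 2 times the usual, the AST value was 12.2%, against 13.02% in the rest. Of the 95 windows of 1 Mb, 20 held no NSC peak, 15 no AST peak and 12 neither. In NSCs the fullest window, from 5 to 6 Mb of chromosome 19, held 25 peaks, of which 17 had an AST partner. It was followed by the first Mb of chromosome 11 with 22, and the window from 4 to 5 Mb of chromosome 19 with 21. The AST maximum was the first Mb of chromosome 11, with 29 peaks, of which 13 had an NSC partner and 17 a background over 2 times the usual. Next came 5 to 6 Mb of chromosome 19 with 22 and 4 to 5 Mb of chromosome 16 with 21.

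The next comparison asked how many of these sites were found in both cell types. Overlap of 1 bp or more with any peak in the other cell type's list made a peak shared. In NSCs 371 of 543 members were shared (68.3%, 64.2 to 72.2), against 65.8% of all autosomal NSC peaks and 65.8% of those outside the stretch. In ASTs 369 of 538 were shared (68.6%, 64.5 to 72.5), against 75.3% of all autosomal AST peaks and 75.5% (74.8 to 76.2) outside the stretch. The NSC share thus lay near its background, and the AST interval lay below the rest of its list. The adjoining stretch had 72.8% (68.9 to 76.4) in NSCs and 76.1% (72.2 to 79.6) in ASTs. Without peaks of background over 2 times the usual, 71.7% (67.5 to 75.7) of the AST members were shared, against 75.3% of the rest, and the interval then included the value of the rest.

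Cell-type-only members were split almost evenly. There were 172 NSC-only and 169 AST-only peaks, so that NSC-only peaks made up 50.4% (45.0 to 55.9), against 61.6% (60.6 to 62.5) in the rest of the autosomes. When peaks of background over 2 times the usual were left out of both, 164 and 140 remained, or 53.95% (48.2 to 59.65) NSC-only, against 61.7% (60.7 to 62.7). The adjoining stretch from 8 to 13 Mb had 153 NSC-only and 129 AST-only peaks, or 54.3% NSC-only (48.2 to 60.2), and 55.1% (49.0 to 61.0) without peaks of such background. The split was thus not shown to be particular to the first 5 Mb.

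Sharing in ASTs was lowest in the first assembled Mb. Between 3 and 4 Mb, 74 of 126 AST peaks were shared (58.7%, 49.6 to 67.4), and between 4 and 8 Mb 295 of 412 were (71.6%, 67.0 to 75.9). In NSCs the values were 70.1% (60.5 to 78.6) of 107 and 67.9% (63.3 to 72.3) of 436. Of the 126 AST peaks in that Mb, 25 had a background over 2 times the usual, and 17 of the 25 lay at the start of chromosome 11. Among the other 101 the share was 69.3% (59.3 to 78.1).

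By fold enrichment, the AST difference was largest among the weaker peaks. A −log10 q of at least 10 in both lists left 271 AST members. Of these 74.2% (68.5 to 79.3) were shared, against 80.2% in the rest. That threshold also keeps peaks of background over 2 times the usual, such as the AST-only chr1:7387024-7387306 (−log10 q 15.56). Sharing at this threshold was not recomputed without them. With each list divided at the quartiles of the fold enrichment of its autosomal peaks into 4 groups, 53 of the 136 AST members in the weakest group were shared (39.0%, 30.7 to 47.7), against 57.0% (55.3 to 58.7) in the rest. In the next groups the shares of members were 63.6% (55.2 to 71.5), 82.2% (73.7 to 89.0) and 90.1% (84.25 to 94.4), against 70.1%, 83.3% and 90.0%. Without background over 2 times the usual, the weakest group had 43.4% (33.5 to 53.8), against 54.3% (52.5 to 56.1), and the intervals then overlapped. In NSCs the shares of members from the weakest group to the strongest were 36.6%, 58.7%, 85.4% and 98.4%, against 31.25%, 53.9%, 80.6% and 96.8% in the rest, each within the counting interval of the members. Of the 125 strongest NSC members only 2 had no AST partner.

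**Figure D3:**
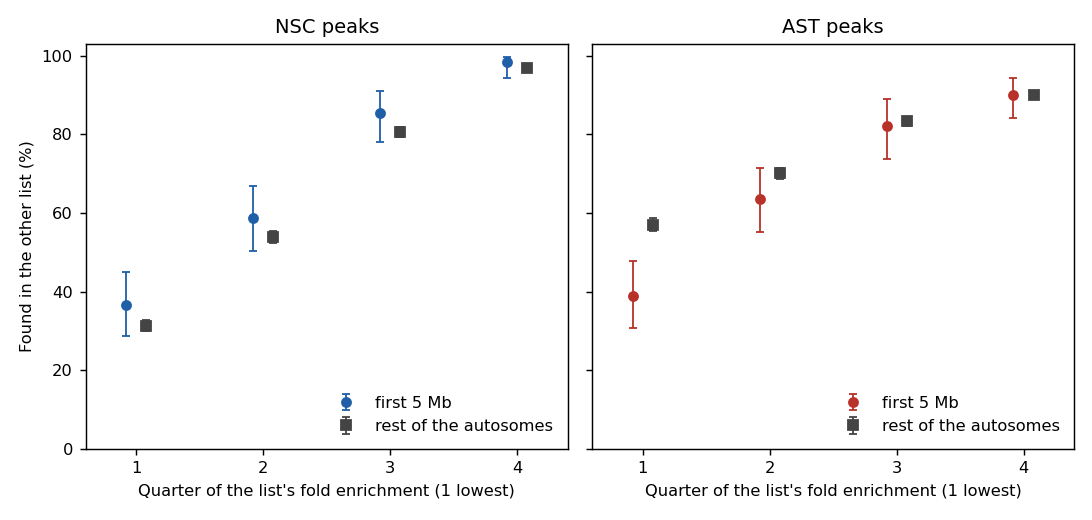
Percentage of peaks with an overlapping peak in the other list, by group of the list's own fold enrichment (divided at its quartiles, 1 the lowest), for the first 5 Mb (coloured circles) and the rest of the autosomes (dark squares), NSC peaks left and AST peaks right, with exact 95% intervals. The intervals are apart only in the weakest AST group, at 39.0% against 57.0%.

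A few chromosome ends stood out in their sharing, chosen after their values had been seen and resting on small counts. On chromosome 13, 10 of 27 NSC members were shared (37.0%, 19.4 to 57.6), against 65.4% on the rest of that chromosome, and 10 of 14 AST members were (71.4%, 41.9 to 91.6), against 76.8%. Several of the unshared NSC members there lay close together. On chromosome 16 it was 20 of 22 NSC members (90.9%, 70.8 to 98.9), against 64.85%, and 20 of 32 AST members (62.5%, 43.7 to 78.9), against 75.98%. On chromosome 1 it was 6 of 17 in NSCs (35.3%, 14.2 to 61.7), against 58.2%, and 6 of 15 in ASTs (40%, 16.3 to 67.7), against 73.7%. Chromosome 1 also had a raised background at 8 of its 17 NSC and 11 of its 15 AST members, and the part of this in the low share was not tested.

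Fold enrichment, the pile-up of fragments at the summit divided by the local background of the peak caller, was compared within each list. Its median over members was 8.32 in NSCs (quartiles 5.885 and 12.97), against 8.80 in the rest, and 7.60 in ASTs (6.02 and 11.4), against 7.98. Without background over 2 times the usual the medians of members were 8.51 and 7.98, against 8.84 and 7.98. Widths were also close to those elsewhere, with a median of 225 bp in NSCs (172.5 and 295), against 233 bp, and 208 bp in ASTs (159 and 255), against 204 bp. Shared members were wider and stronger than the others within each list. In NSCs the median width was 250 bp for shared and 173.5 bp for NSC-only members, and the median fold enrichment 10.6 and 5.87. In ASTs it was 225 and 167 bp, and 9.13 and 6.08. These differences within the set follow the whole lists and are not particular to it.

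Where both cell types had a peak, the summits nearly coincided. Over the 371 pairs the median distance between summits was 17 bp (quartiles 8 and 33.5), against 19 bp in the rest, and 88.1% lay within 50 bp. The Pearson correlation of log2 fold enrichment across these pairs was 0.624 and the Spearman correlation 0.576, against 0.5275 and 0.523 over the 11430 pairs of the rest, a description over sites that share sequence and mappability. Without pairs in which either peak had a background over 2 times the usual, they were 0.620 and 0.591, against 0.575 and 0.568. The adjoining stretch without such pairs had 0.632 and 0.623, so the higher values were not particular to the centromere ends. The NSC peak was the wider of the pair in 244 of 371 (65.8%, 60.7 to 70.6), with a median difference of 26 bp. In the rest it was 73.4% (72.6 to 74.25), with a median difference of 47 bp. The adjoining stretch was like the centromere end, at 65.5% (60.7 to 70.1) of 409 pairs and 28 bp. Pairs in which neither peak had a background over 2 times the usual gave 66.5% (61.2 to 71.5) at the centromere ends and 74.0% (73.2 to 74.9) in the rest.

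The strongest sites were shared throughout. In mm9 coordinates, the NSC member of highest fold enrichment was chr19:5001896-5002527, at 45.2, and its AST partner, chr19:5001973-5002529, had 30.8, the second highest of the AST members. The other NSC leaders were chr2:6326233-6326680 (39.6), chr15:6859671-6860108 (37.8), chr10:7013171-7013663 (37.3) and chr11:3414383-3414867 (36.4). Their AST partners had fold enrichments of 20.9, 25.1, 20.95 and 15.97. The last of these sites lies 0.4 Mb into the sequence of chromosome 11, so strong ordinary peaks occurred close to the centromere end too.

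In ASTs the highest value by far was that of chr17:4626067-4626694, at 71.1. Its summit pile-up was 187 fragments over a background of 2.63. The NSC partner, chr17:4626070-4626678, was nearly as wide, 609 against 628 bp, and had a fold enrichment of 31.85 from 127.4 fragments over a background of 4. The third AST peak, chr13:3405981-3406223, had 29.8, while its NSC partner, chr13:3405977-3406249, had 8.92. Here the pile-ups were alike, 85 fragments in ASTs and 98.1 in NSCs, and the backgrounds were not, 2.85 against 11 fragments. This site shows how the ratio depends on the local background. The remaining AST leaders were chr10:6814755-6815145 (29.1, NSC partner 35.5) and chr15:7176198-7176646 (27.2, NSC partner 28.2).

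Cell-type-only members were weaker. The strongest NSC-only peaks were chr11:3953669-3953919 (fold enrichment 15.55, 251 bp), chr19:5780244-5780513 (13.8, 270 bp) and chr5:4911934-4912201 (12.2, 268 bp). The strongest AST-only peaks were chr1:3754911-3755136 (17.75, 226 bp), chr12:4507211-4507433 (14.6, 223 bp) and chr8:3204388-3204609 (14.45, 222 bp). Backgrounds at these 6 peaks were between 1.00 and 1.12 times the usual. The AST-only peak on chromosome 1 was the first peak of that chromosome in either list. The first NSC peak there started at 4322605.

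At the boundary of the set, the last NSC member was chr5:7996813-7997000 (fold enrichment 5.80, shared) and the first NSC peak beyond it chr4:8012222-8012373 (5.28, shared). The last AST member was chr5:7996745-7997029 (7.60, shared), the partner of the NSC one, and the first AST peak beyond was chr1:8008829-8008959 (6.23, AST-only).

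The last question was which of these peaks had low enrichment at raised background. The local background that the caller set at each peak follows from the peak's fold enrichment and p. Its usual level was taken as the median among peaks enriched more than 8-fold, 3.22 fragments for NSCs and 2.63 for ASTs. Background over 1.1 times this level was called raised. It was raised at 158 of 543 NSC members (29.1%, 25.3 to 33.1), against 26.9% of all autosomal NSC peaks, and at 191 of 538 AST members (35.5%, 31.5 to 39.7), against 33.8%. These shares lay near the background. Background over 2 times the usual was found at 33 NSC members (6.08%, 4.22 to 8.43), against 4.07% of autosomal peaks, and at 43 AST members (7.99%, 5.84 to 10.6), against 3.71%. Such members occurred on 14 chromosomes in NSCs and 15 in ASTs.

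A peak was marked when its background was raised and its fold enrichment was below the lower quartile of the list, 6.13 in NSCs and 6.08 in ASTs. Since fold enrichment is a ratio to the background, the mark in part follows from the raised background. In NSCs 71 members were marked (13.1%, 10.4 to 16.2), against 9.67% of autosomal peaks and 9.56% (9.13 to 10.01) outside the stretch. In ASTs 84 were marked (15.6%, 12.65 to 18.96), against 13.2% of autosomal peaks and 13.1% (12.6 to 13.6) outside. Marked members occurred on 17 chromosomes in each list. Chromosome 11 held 25 of the AST ones and 8 of the NSC ones. Without chromosome 11 the marked share of members was 13.2% in NSCs (10.3 to 16.6), against 9.73% elsewhere, and 12.8% in ASTs (9.89 to 16.2), against 13.35% elsewhere. The AST interval included the value outside the stretch with and without that chromosome. The NSC interval lay above it in both cases, but not under every other choice. Without the 7 NSC peaks at the start of chromosome 11 the NSC share was 11.9% (9.32 to 14.99), and among peaks of background up to 2 times the usual it was 9.22% (6.85 to 12.1), against 7.37% in the rest, each interval including the value of the rest. With fold enrichment below the median in place of the lower quartile it was 19.7% (16.4 to 23.3), against 16.5%. With background over 2 times the usual as the limit, chromosome 11 included, it was 4.42% (2.85 to 6.505), against 2.49% in the rest. The AST share under that limit was 6.88% (4.89 to 9.355), against 2.62%. Both of these intervals lay above the value of the rest. The group at the start of chromosome 11 gave 7 of the 24 NSC and 17 of the 37 AST members under that limit. The shares under it were not recomputed without the group, so an excess elsewhere was not shown.

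The mark selects weak peaks, and marked peaks were also narrow both in the stretch and elsewhere. Marked members had a median fold enrichment of 4.72 and width of 172 bp in NSCs, against 4.72 and 170 bp for marked peaks elsewhere. In ASTs marked members had 4.34 and 172.5 bp, against 4.91 and 162 bp. Of the NSC ones 39 of 71 were shared (54.9%, 42.7 to 66.8), against 48.2% of marked peaks elsewhere. Of the AST ones 36 of 84 were shared (42.9%, 32.1 to 54.1), against 64.7% (62.6 to 66.8) elsewhere. Members with a background over 2 times the usual were shared in 25 of 33 cases in NSCs (75.8%, 57.7 to 88.9) and in 14 of 43 in ASTs (32.6%, 19.1 to 48.5), where the rest of the autosomes had 80.8% (77.7 to 83.6) and 80.9% (77.3 to 84.1). In ASTs these intervals were apart. Without the group on chromosome 11 described next, 11 of 26 AST members of such background were shared (42.3%, 23.35 to 63.1), and 33 of the 67 remaining marked ones were (49.25%, 36.8 to 61.8).

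**Figure D4:**
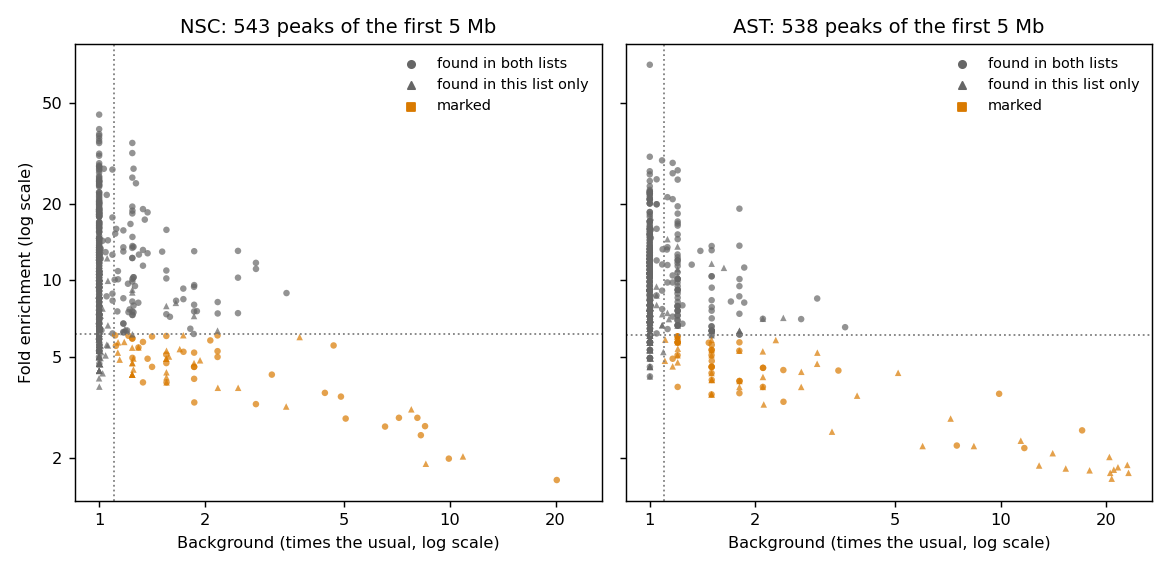
Fold enrichment (vertical, log scale) and background as a multiple of the usual level (horizontal, log scale) of each member in NSCs (left) and ASTs (right), as circles for shared and triangles for cell-type-only peaks. Dotted lines are the limits of the mark, and the 71 and 84 marked peaks are in orange; the AST panel has a group of triangles near 20 times the usual background and 2-fold enrichment.

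The densest group of such peaks lay at the start of chromosome 11. The first 17 AST peaks of that chromosome, from 3023784 to 3098326, all had a background over 2 times the usual, and all were marked. They made up 39.5% of the 43 AST members of such background. Their fold enrichments ran from 1.65 to 4.36 with a median of 2.01, and their backgrounds from 5.56 to 60.9 fragments with a median of 44.9, or 17.1 times the usual. Only 3 of the 17 overlapped an NSC peak. NSCs had 7 peaks there, from 3026994 to 3045008, all of them marked, with fold enrichments from 1.63 to 3.10 and backgrounds from 24.96 to 64.8 fragments.

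The background is known at called peaks only, so in NSCs it was seen to be raised over the 18.0 kb with peaks and not beyond. Of the 17 AST peaks 10 lay within 5 kb of an NSC peak, and all 7 NSC peaks lay within 5 kb of an AST peak. The AST peak of highest background was chr11:3093582-3093909, with 60.9 fragments and a fold enrichment of 1.74, followed by chr11:3056462-3056680 (60.4 and 1.87) and chr11:3098155-3098326 (56.8 and 1.83). The highest in NSCs was chr11:3044787-3045008, with 64.8 fragments and 1.63, and the next chr11:3031406-3031595, with 35.0 and 2.02. The AST partner of the former, chr11:3044547-3045112, had 44.9 fragments and 2.56. The next peak of the chromosome started at 3247209 in NSCs and at 3247192 in ASTs. Without the group 26 NSC and 26 AST members had a background over 2 times the usual, 4.85% (3.19 to 7.03) and 4.99% (3.29 to 7.23). Among all autosomal peaks the shares were 4.07% in NSCs and 3.71% in ASTs. Each interval then included the autosomal share of its list, so an excess outside this group was not shown.

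**Figure D5:**
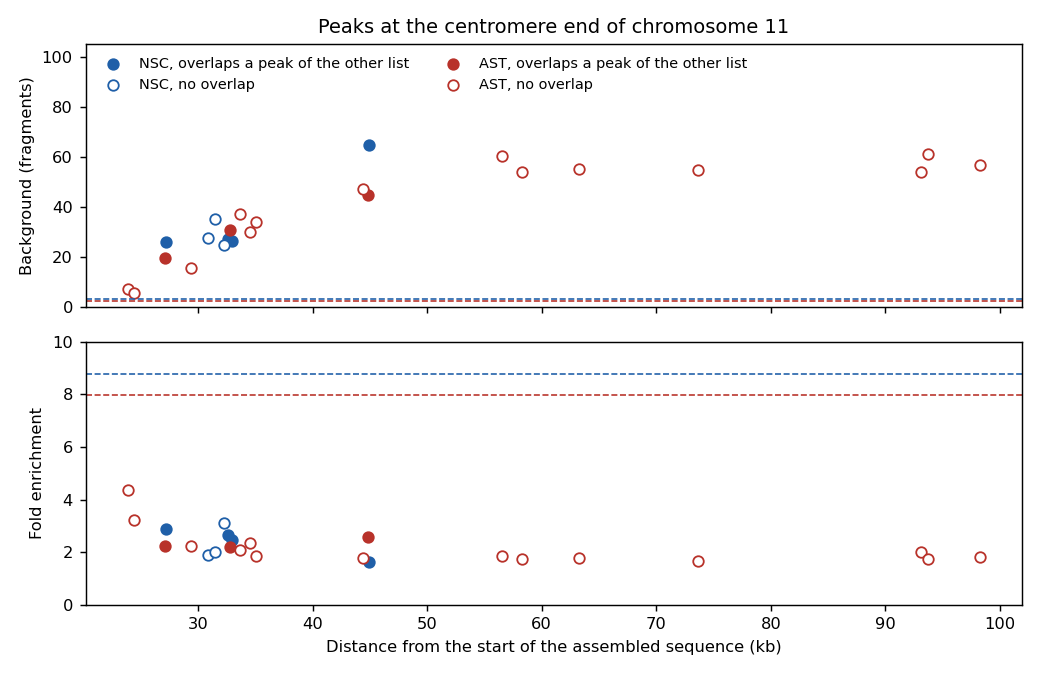
Background in fragments (upper panel) and fold enrichment (lower panel) of the 7 NSC (blue) and 17 AST (red) peaks at the centromere end of chromosome 11, by distance from the start of the assembled sequence in kb, filled where the peak overlaps one of the other list. Dashed lines are the usual background and the median fold enrichment of the autosomal peaks of each list; all 24 peaks lie above the former and below the latter.

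Other peaks of this kind were scattered. Background over 2 times the usual in both partners was found for 9 NSC peaks, 4 of them in the group on chromosome 11. The others were chr6:3151379-3151630 (31.9 fragments in NSCs and 26.05 in ASTs, fold enrichments 1.98 and 3.57), chr3:5860559-5860846 (21.0 and 7.89, 2.65 and 8.49), chr2:4143311-4143506 (14.2 and 9.07, 3.60 and 4.41), chr7:7231113-7231273 (16.2 and 6.32, 2.85 and 4.43) and chr7:7252202-7252345 (15.7 and 9.48, 3.48 and 6.54). These positions had a raised background in either cell type, and a peak was called in each. In ASTs alone, 3 peaks between 3082636 and 3084568 at the start of chromosome 17 had backgrounds of 22.1, 10.3 and 18.95 fragments and fold enrichments of 2.22, 3.51 and 2.85. What sets the background at these positions was not tested.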

How the data were processed

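Rad21 ChIP-seq peaks of mouse NSCs and ASTs were used, 1 deposited list per cell type. Bowtie 1.0.0, MACS2 2.0.9 and build mm9 are the tools and build in the submitters' processing notes. Their settings are not given in the sources used here, nor is depth. Fold enrichment, as deposited, is a ratio of pile-up to local background, and the authors' p and q are deposited as −log10 values.

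The sample labels gave the cell type and antibody. Background was recovered by solving for the Poisson mean that gives both the deposited fold enrichment and p, with 1 scale per list (0.9437 in NSCs, 1 in ASTs), within 0.05 of the −log10 p for all 18405 NSC peaks and 16156 of 16157 AST peaks. Stretches ran from 3 to 8 Mb, 8 to 13 Mb, 8 Mb to the last peak of either list, and the last 5 Mb before it. Intervals were Clopper-Pearson (shares), exact Poisson (densities) and conditional binomial (density ratios). No test between cell types was possible, with 1 library each, and peaks were not treated as replicates. The members and comparisons were chosen with earlier results of these data known. Peaks were named by a rule on fold enrichment, background, windows and the 8 Mb boundary; the first peaks of chromosomes, the group on chromosome 11, the trio on chromosome 17, the pairs of raised background and chromosomes 1, 13 and 16 were named after their values were seen. The gene and promoter tables used here are of build GRCm38, so no gene names or sequences were assigned to mm9 positions. Positions count from 1. The scripts were tested on simulated data. Calculations used scipy 1.17.1, pandas 2.3.3 and numpy 2.4.6 under Python 3.11.15, with figures by matplotlib 3.10.9.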

Additional observations from a re-analysis of the deposited data

How the results depend on the processing

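No paired analysis was possible because each cell type has 1 Rad21 library. Of 52 values recomputed under other settings, 39 stayed within the counting interval of the reported value and 13 moved beyond it. The density ratio was 0.863 in NSCs and 1.06 in ASTs with the boundary at 5 Mb, 0.839 and 0.953 when counted from the first peak of either list, and 0.690 in NSCs without chromosome 19. Leaving out each chromosome in turn gave ratios of 0.690 to 0.801 in NSCs and 0.797 to 0.909 in ASTs, the lowest without chromosome 19 and the highest without chromosome 9, and shared shares of 66.95% to 69.96% and 66.2% to 69.6%. The shared share of NSC members was 60.9% at a −log10 q of at least 10 (57.25% in the rest), 74.5% with lists of equal length (72.4%) and 64.1% with reciprocal overlap of 0.5 (60.3%). That of AST members was 74.2% at a −log10 q of at least 10 (80.2% in the rest). The q threshold was applied to both lists. Under every setting for sharing tried, the share of NSC members was above that of the rest and the share of AST members below it. These settings reuse the same peaks. The main NSC interval included the value of the rest, as did the AST interval without background over 2 times the usual. The marked share was 4.42% in NSCs and 6.88% in ASTs with background over 2 times the usual as the limit (2.49% and 2.62% in the rest). It was 19.7% and 23.98% with fold enrichment below the median (16.5% and 22.0%). All of these shares count the group at the start of chromosome 11. The omission of chromosomes 19 and 11 (marked peaks) and the median over chromosomes were chosen after seeing the data. A peak missing from a list was not called there and need not be unbound, and the 2 lists may differ in depth, which was not measured.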
